A study of Mus musculus with 163 samples.

Results

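The genes of heat shock proteins and chaperonins were read in single mouse oocytes, as 73 of the 21950 genes in the count table. They were chosen by name: every gene whose identifier maps to a symbol beginning with Hspa, Hspb, Hspd, Hspe, Hsph, Hsp90, Dnaja, Dnajb, Dnajc or Cct and a number, with pseudogene names left out. The 73 comprised 10 Hsp70 genes, 3 Hsp110 genes, 2 Hsp90 genes, 7 genes of small heat shock protein (Hspb) name, 1 gene of the Hsp60 and Hsp10 pair, 7 Cct genes and 3 Dnaja, 13 Dnajb and 27 Dnajc genes. A further 9 symbols of these families in the RefSeq gene table, Cct5, Dnaja1, Hsp90b1 and Hspd1 among them, were not analysed here. The 163 oocytes were taken at 2 stages, growing (GRO) and fully grown (FGO). GROs were iPSC-derived (23 oocytes), gonad-derived (24) or in vivo (24), and FGOs were iPSC-derived (24), gonad-derived (24), 6 dpp (24) or in vivo (20). The iPSC-derived oocytes came from BVSC-iPSC, 1 female line of induced pluripotent stem cells that carries Blimp1-Venus and Stella-ECFP reporters. Its primordial germ cell-like cells were aggregated with somatic cells of Swiss Webster female gonads at E12.5 into reconstituted ovaries. Gonad-derived oocytes grew in reconstituted ovaries of dissociated E12.5 gonads, the 6 dpp group was isolated as follicles at 6 days post partum and grown in culture, and the labels give no age for in vivo oocytes.

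Molecular chaperones bind unfolded or partly folded proteins and help them reach or keep their native form. Hsp70 proteins work in cycles of ATP hydrolysis in which J-domain proteins (the Dnaj families) deliver substrates and start hydrolysis, and Hsp110 proteins exchange the nucleotide. Hsp90 acts later, on kinases, receptors and other nearly folded clients. The chaperonin CCT is a double ring of 8 different subunits that folds actin and tubulin, and small heat shock proteins hold unfolding proteins without using ATP. Heat shock factors, which bind alternating GAA and TTC units in DNA, drive the inducible members, and the unfolded protein response drives those of the endoplasmic reticulum (ER). An oocyte builds its store of RNA and protein during growth and, once fully grown, is nearly silent in transcription until the embryo starts its own.

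Levels are given as CPM, counts per 1000000 reads of an oocyte, and a pooled level is the summed count of a group over its summed total. Groups are set against each other by a log2 ratio, first group over second, after 0.5 CPM is added to both pooled levels, which understates the change of low genes, and genes were called at 2-fold, a log2 ratio of 1 or more in size. Each oocyte was a separate library, but no label names the animal or culture behind it, so each group was treated as 1 sample: no comparison has a test or a replicate check, and ranges over oocytes describe spread between cells. Totals ran from 2.17 to 13.7 M reads (M, 1000000) with a median of 6.93 M, so that 3 reads in a group came to at most 0.0207 CPM. All 12 oocyte markers of a fixed list were in the table and together took at least 19262 CPM in every oocyte. Their summed pooled level was lower in FGOs than in GROs of each source, 48767 against 72655 CPM in vivo, 32512 against 62882 in gonad-derived and 27405 against 70149 in iPSC-derived oocytes, and 31527 CPM in 6 dpp FGOs. The 12 granulosa markers measured, of 14 listed, took 18.7 to 105 CPM in GROs, and FGO medians were 121 CPM in vivo, 130.2 in the 6 dpp group, 118 in gonad-derived and 89.9 CPM in iPSC-derived oocytes. The highest sums were 1757 CPM in 6 dpp FGO 12 and 415 CPM in in vivo FGO 19. The part of such RNA in the values below was not tested. Among oocytes that stood apart, gonad-derived FGO 19 had the lowest value of its group for 21 and the highest for 12 of the 52 members at 5 pooled CPM or more. Its Hspa8 level was 4.60 CPM against 54.0 CPM or more in the other gonad-derived FGOs.

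Chaperone transcripts took up about 1% of the reads of an oocyte. The summed level of all members was highest in in vivo GROs, where it ran from 0.930 to 1.24% of reads with a median of 1.07%, and the other 6 medians spanned 0.783% (iPSC-derived FGOs) to 0.881% (in vivo FGOs). Of the 73 members, 49 were above 1 CPM in every oocyte, 60 entered all 8 comparisons and 7 entered none. Those 7, Cct8l1, Dnajb7, Dnajb8, Hspa12b, Hspb2, Hspb3 and Hspb7, stayed at or below 0.283 pooled CPM in every group. To enter, a gene needed more than 1 CPM in 3 or more oocytes, counted over both groups for growth and over the stage for culture.

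From GROs to FGOs in vivo, the median ratio of a family was -1.28 for the Hsp90, -0.83 for the Hsp110, -0.52 for the CCT, -0.47 for the Hsp70, -0.42 for the Dnajb, -0.30 for the Dnaja and -0.08 for the Dnajc genes. It was 0.16 for the small heat shock genes, of which 2 of the 3 that entered, Hspb11 and Hspb6, were higher in FGOs by any amount, with limits given below. The summed level of the 2 Hsp90 genes had a median of 2328 CPM in in vivo GROs and 1019 CPM in in vivo FGOs, and that of the Cct genes 1840 and 1493 CPM. The summed Dnajb level was 1188 and 1601 CPM, but 9 of the 10 Dnajb genes that entered were lower in FGOs by any amount and 1, Dnajb4, was higher. In vivo, 3 of the 63 members that entered were at least 2-fold higher in FGOs and 6 at least 2-fold lower, against 10.4% and 13.2% of all genes. In gonad-derived oocytes 2 of 61 were higher and 7 lower (all genes, 5.82% and 9.98%), and in iPSC-derived oocytes 3 of 61 were higher and 10 lower (all genes, 6.69% and 15.3%). That last split was 4 higher and 6 lower with TMM scaling and 4 and 7 with DESeq2 size factors, where Dnajc9 joined the higher members. Among the lower members, Dnajc12 passed the filter on low values through GROs alone in both kinds of cultured oocyte, so its direction was set by the filter. The median member ratio was -0.30 in vivo, -0.13 in gonad-derived and -0.16 in iPSC-derived oocytes, and the median over all genes -0.11, -0.05 and -0.11. Oocytes of both stages did not overlap for 0 members higher and 2 lower in vivo (all genes, 2.26% and 1.19%), 1 higher and 4 lower in gonad-derived (1.36% and 2.62%) and 2 higher and 4 lower in iPSC-derived oocytes (2.39% and 5.62%). The plot of growth ratios shows a few members far from the rest.

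**Figure D1:**
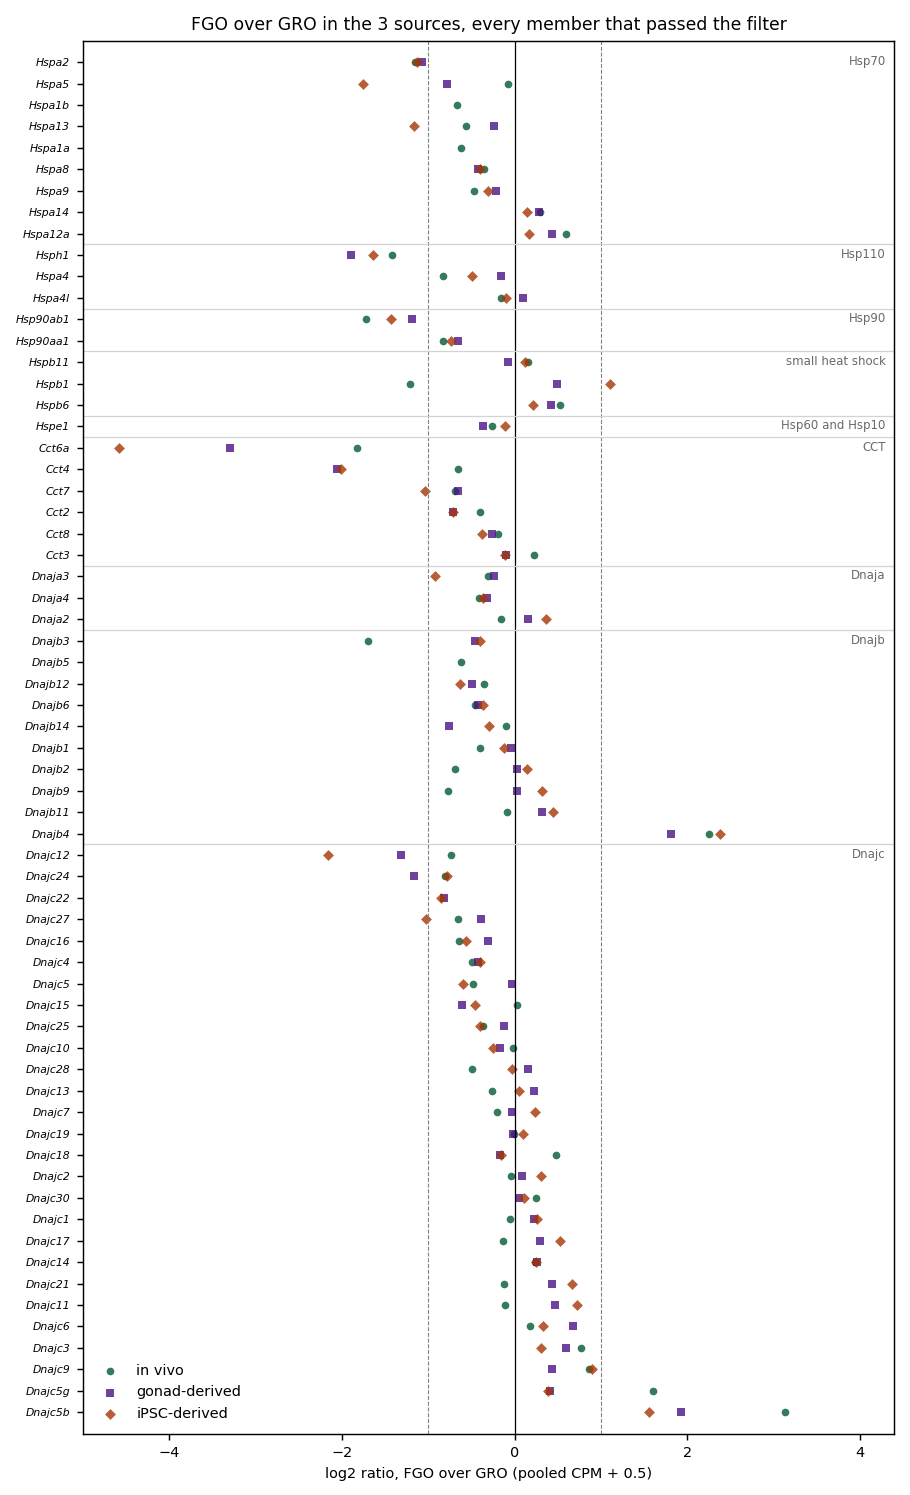
Log2 ratio of FGO over GRO, with pooled CPM + 0.5, for every member that passed the filter, in vivo (circles), gonad-derived (squares) and iPSC-derived (diamonds), ordered within families, with dashed lines at 2-fold. Most members lie within 2-fold, Cct6a reaches -4.58 at the low end and Dnajc5b 3.14 at the high end, and Hspa5 runs from -0.07 in vivo to -1.76 in iPSC-derived oocytes.

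Hspa5, the Hsp70 of the ER lumen (BiP), had like levels in GROs and FGOs in vivo and lower levels in cultured FGOs than in cultured GROs. In in vivo GROs its lowest, median and highest levels were 572, 679.6 and 849 CPM, and in in vivo FGOs 363, 662 and 874 CPM. The ratio of growth was -0.07 in vivo, -0.78 in gonad-derived and -1.76 in iPSC-derived oocytes. The median ratio of the 12 oocyte markers was -0.51, -0.88 and -1.32 in the same comparisons and -0.46 in 6 dpp against in vivo FGOs, and their part in the Hspa5 values was not tested. Among cultured FGOs it ran 111, 242 and 508 CPM in the 6 dpp group, 129.9, 248 and 417 CPM in gonad-derived and 29.4, 118 and 355 CPM in iPSC-derived FGOs. Every iPSC-derived FGO was thus below every in vivo FGO, while the 6 dpp and gonad-derived ranges nearly coincide. Of the 24 6 dpp FGOs, 20 were below all in vivo FGOs, and the ratio of the 6 dpp to the in vivo group was -1.33, from pooled levels of 259 (95% Poisson interval 256 to 261) and 651 (647 to 655) CPM. Such intervals cover counting error only. The ratio of iPSC-derived to gonad-derived FGOs was -0.97, just under 2-fold, and 13 of 24 iPSC-derived FGOs were below all gonad-derived ones. Cultured GROs were already lower: gonad-derived GROs had 359.6, 437 and 632 CPM and iPSC-derived GROs 339.6, 426 and 662 CPM, and 23 of 24 gonad-derived GROs were below all in vivo GROs. Ordered by median, in vivo GROs and in vivo FGOs came first, then gonad-derived and iPSC-derived GROs, gonad-derived and 6 dpp FGOs, and iPSC-derived FGOs last, and each neighbour in that order overlapped the next. Per length, Hspa5 was the first of the Hsp70 genes in all groups except 6 dpp and iPSC-derived FGOs, with 222 CPM per kilobase in in vivo FGOs and 45.1 in iPSC-derived FGOs.

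Dnajc3, whose product (p58IPK) is an ER J-domain partner of BiP, shared the low side in culture but was higher in FGOs than in GROs. It ran 247, 305 and 421 CPM in in vivo GROs and 350.4, 534 and 629 CPM in in vivo FGOs, and 19 of 20 in vivo FGOs were above all in vivo GROs. Its ratio of growth was 0.78 in vivo and 0.30 in iPSC-derived oocytes. The FGO medians stepped down from 534 CPM in vivo to 405 in 6 dpp, 343 in gonad-derived and 248 in iPSC-derived FGOs, and every iPSC-derived FGO, at 324 CPM or less, was below every in vivo FGO. Dnajb11, the other main J-domain partner of BiP, did not share this: its medians were 162 to 175 CPM in all 4 FGO groups. Dnajb9, also of the ER, had medians of 33.9 CPM in iPSC-derived and 18.7 CPM in in vivo FGOs.

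Hspa5 and Dnajc3 share a feature that the choice by name did not use. The ER stress element, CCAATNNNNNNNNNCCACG on either strand, was found in the promoter windows of just these 2 of the 58 members that have a window in the RefSeq table of GRCm38.p6 (250 bases before to 50 after a start). Over all 27025 genes with a window, 37 held it, or 0.137%. Both stretches are shown as the matches among members, Hspa5 being 2-fold apart in a culture comparison and Dnajc3 in none, with the fixed letters of the element in capitals. The Hspa5 stretch lies at chr2:34772005-34772063 and the Dnajc3 stretch at chr14:118937807-118937865, both on the plus strand and upstream of the start.
Hspa5: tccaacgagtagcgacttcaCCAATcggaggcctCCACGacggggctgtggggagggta
Dnajc3: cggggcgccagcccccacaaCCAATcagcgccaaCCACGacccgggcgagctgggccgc
The match is a description of letters and not of binding.

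Other ER chaperones outside the name rule were read from a list of 13 genes, all measured. Pdia3, a protein disulfide isomerase, had a pooled level of 492 CPM in in vivo GROs, 285 in in vivo FGOs, and 142, 140 and 104 CPM in 6 dpp, gonad-derived and iPSC-derived FGOs. Pdia6 had 322 CPM in in vivo and 103 CPM in iPSC-derived FGOs, and the latter ran from 54.9 to 183 CPM, below all in vivo FGOs (233 to 429). Of the 13, 1 was at least 2-fold higher and 0 lower in growth in vivo, 1 and 1 in gonad-derived and 0 and 3 in iPSC-derived oocytes. All genes were at 10.4% and 13.2%, 5.82% and 9.98%, and 6.69% and 15.3%, so that counts this small are not a result about the list. The calreticulin paralogue Calr3 was higher in vivo at 1.18, Clgn higher in gonad-derived oocytes at 1.12, Pdia3 lower in both kinds of cultured oocyte at -1.10 and -1.58, and Pdia6 lower in iPSC-derived oocytes at -1.18, as was Hyou1, from 50.4 to 24.9 pooled CPM. Between FGO groups, Calr3 and Pdia6 were lower in iPSC-derived than gonad-derived oocytes (-1.48 and -1.09), and Pdia3 just passed 2-fold between the 6 dpp and in vivo groups given above.

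Among 11 genes of the unfolded protein response, 10 were measured, and 4 were at least 2-fold lower in growth in vivo, 4 in gonad-derived and 6 in iPSC-derived oocytes, against 13.2%, 9.98% and 15.3% of all genes. Their summed pooled level was nonetheless higher in FGOs than in GROs in vivo (809 against 734 CPM) and in gonad-derived oocytes (910 against 787 CPM). In iPSC-derived oocytes it was lower in FGOs (594 against 752 CPM). Xbp1, the transcription factor spliced by IRE1, had a median of 50.8 CPM in in vivo GROs and 3.29 CPM in in vivo FGOs, and its GROs and FGOs did not overlap in any of the 3 sources. Ern1, which encodes IRE1 itself, went the other way in gonad-derived and iPSC-derived oocytes, with ratios of 1.26 and 1.04. Atf4, which acts downstream of the ER kinase PERK, had medians of 429 CPM in in vivo, 475 in gonad-derived and 137 CPM in iPSC-derived FGOs, and a ratio of -1.65 between the last 2. Eif2ak3, Herpud1, Trib3 and Ero1a, the remaining lower genes, were each under 16 pooled CPM in all groups.

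**Figure D2:**
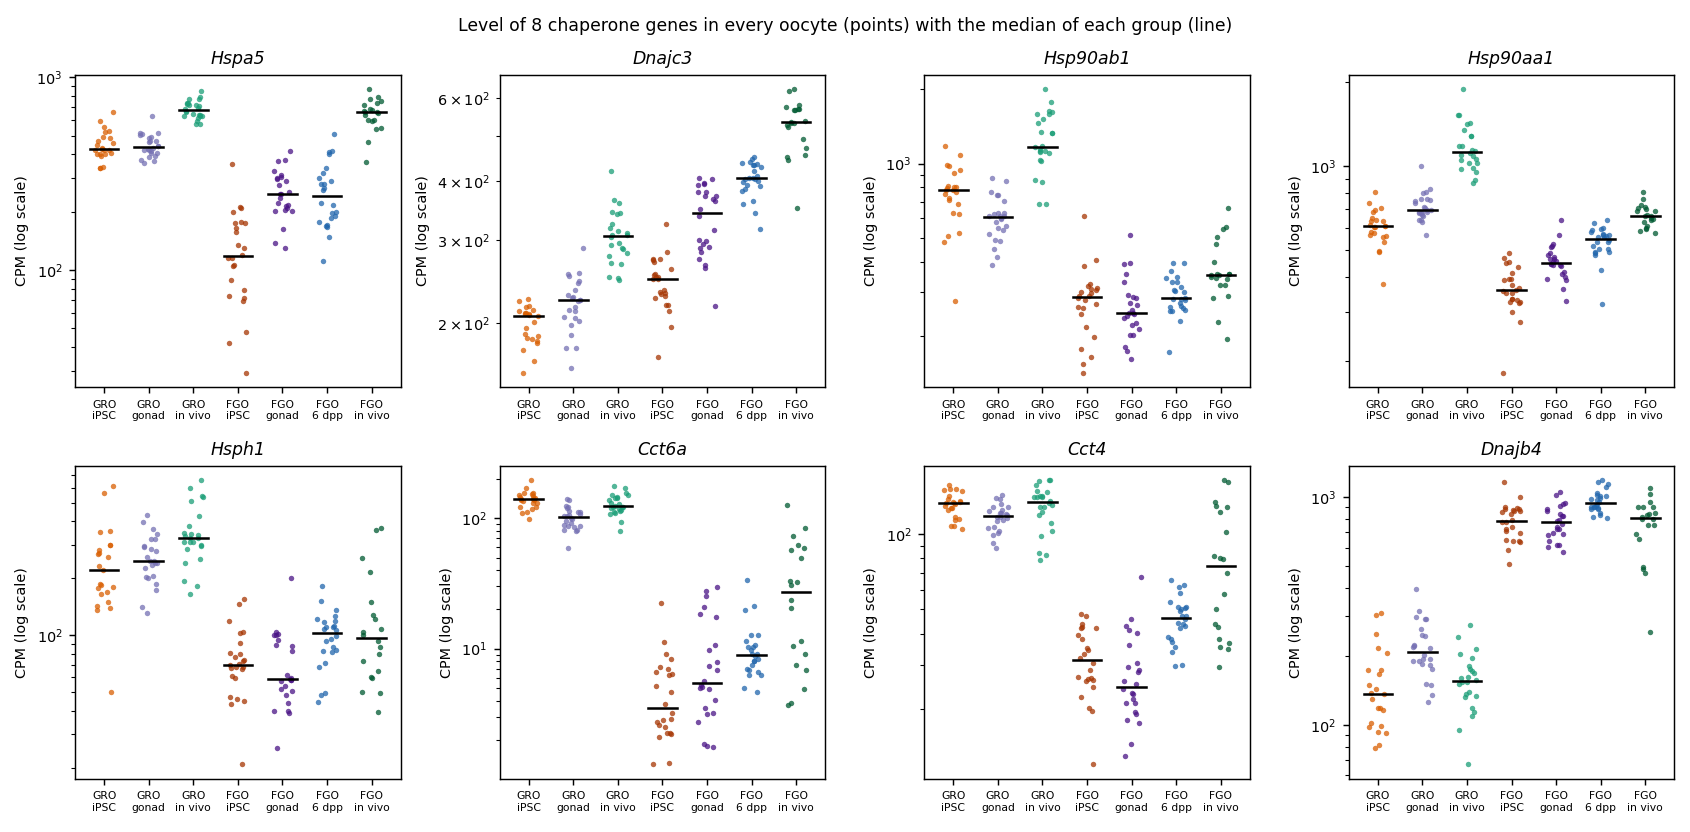
CPM on log scales of 8 genes in every oocyte (points) of the 7 groups, with group medians as lines. Hspa5 medians are 680 CPM in in vivo GROs and 662 CPM in in vivo FGOs but 118 CPM in iPSC-derived FGOs, Dnajc3 medians step up from cultured to in vivo oocytes within each stage, the 2 Hsp90 genes are highest in in vivo GROs, Cct6a is at 33.6 CPM or less in every cultured FGO, and Dnajb4 medians are 774 to 938 CPM in FGOs.

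The 2 cytosolic Hsp90 genes were highest in in vivo GROs. Hsp90ab1, the constitutive form, ran 682, 1169 and 2012 CPM there, 387, 606 and 877 CPM in gonad-derived and 276, 779 and 1182 CPM in iPSC-derived GROs. Of the gonad-derived GROs, 18 of 24 were below all in vivo GROs, and the ratio was -1.05. In FGOs it ran 194, 353 and 662 CPM in vivo and 172, 284 and 395 CPM in the 6 dpp group. Every in vivo FGO was below every in vivo GRO, with a ratio of -1.72, and the ratio of growth was -1.18 in gonad-derived and -1.43 in iPSC-derived oocytes, where the stages overlapped. Hsp90aa1, the stress-inducible form, ran 873, 1127 and 1895 CPM in in vivo GROs and 575, 663 and 807 CPM in in vivo FGOs, again without overlap. Its ratios of growth were -0.83, -0.66 and -0.73 in vivo, in gonad-derived and in iPSC-derived oocytes. Per length the order of the pair differed between groups: Hsp90ab1 was at 427 and Hsp90aa1 at 361 CPM per kilobase in in vivo GROs, but at 129 and 203 in in vivo FGOs, and Hsp90aa1 was the higher in all 4 FGO groups and, at 219 against 207, in gonad-derived GROs.

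Hsph1, an inducible Hsp110 nucleotide exchange factor, was lower in FGOs of all 3 sources. It ran 165, 325 and 659.6 CPM in in vivo GROs and 39.3, 96.9 and 369 CPM in in vivo FGOs. The ratio was -1.42 in vivo, -1.90 in gonad-derived and -1.64 in iPSC-derived oocytes, and the stages overlapped in all 3. The constitutive Hsp110 gene Hspa4 was lower by less, with ratios of -0.83, -0.15 and -0.49, and Hspa4l, its testis-rich relative, lay between -0.16 and 0.10, its iPSC-derived ratio of -0.10 turning to 0.07 with TMM scaling. Hspa2, an Hsp70 best known from male germ cells, was over 2-fold lower in FGOs of each source (-1.15, -1.07 and -1.13), from medians of 23.7 CPM in in vivo GROs and 9.07 CPM in in vivo FGOs. The iPSC-derived ratio was under 2-fold with TMM scaling (-0.97), DESeq2 size factors (-0.99) and a pseudocount of 2 CPM (-0.99), and the gonad-derived one with the last (-0.90). Hspa8, the constitutive cytosolic Hsp70, had ratios of -0.35 to -0.42 in growth, and Hspa9, the mitochondrial Hsp70, of -0.22 to -0.47. Hspa14, which binds ribosomes, and Hspa12a were instead slightly higher in FGOs of all 3 sources, at 0.15 to 0.60. Hspa13, a microsomal Hsp70, was at least 2-fold lower only by the iPSC-derived comparison (-1.16, and just under 2-fold with TMM scaling), in which no FGO reached the lowest GRO, 17.7 against 18.1 CPM.

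Within groups, how far these genes went together from oocyte to oocyte varied. Across the 23 iPSC-derived GROs, log2 levels of Hsph1 and Hsp90ab1 had a Pearson r of 0.80 (Spearman's rho 0.76), and 0.64 without the 2 oocytes farthest from the median of Hsph1, of which iPSC-derived GRO 6 was the lowest for both. The same r was 0.80 across the 20 in vivo FGOs (rho 0.59), 0.51 across the 24 in vivo GROs (rho 0.43) and -0.01 across the 24 6 dpp FGOs (rho -0.08, and 0.36 without the 2 farthest), and it ran from 0.40 to 0.70 in the other 3 groups, the 0.40 of iPSC-derived FGOs being 0.11 without the 2 farthest. For Hsp90aa1 and Hsp90ab1 r was 0.65 in in vivo GROs and 0.58 in in vivo FGOs (0.58 and 0.48 without the 2 farthest). In the other 5 groups it ran from -0.33 in 6 dpp FGOs to 0.57 in iPSC-derived FGOs, and without the 2 farthest from -0.15 to 0.25. Both values of a point share 1 library and its total, so these, like the other within-group values given here, describe these cells only. iPSC-derived GRO 6 had the lowest level of its group for 18 of 52 members, with a total of 7.36 M reads.

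The strictly inducible genes had low levels. Hspa1a had pooled levels of 1.26 CPM in in vivo GROs and 0.176 to 0.642 CPM in the other groups, and Hspa1b of 0.902 and 0.0255 to 0.386 CPM. Hspa1a and Hspa1b are near-identical copies, and only uniquely mapped reads were counted, so both values are uncertain and may be too low. In vivo GROs ran 0, 0.627 and 7.02 CPM (lowest, median and highest) for Hspa1a, and gonad-derived GROs reached 0.990 CPM at most. The ratios of gonad-derived to in vivo GROs were -1.28 and -1.42, but among GROs both genes passed the filter through the in vivo group alone, with 9 and 6 oocytes above 1 CPM, so their direction was set by the filter. Hspb1 (Hsp25), a small heat shock protein, ran 1.16, 4.17 and 111 CPM in in vivo GROs. The highest value there was in vivo GRO 3, which also had the highest summed level of 10 immediate early genes in its group (556 CPM against a median of 292). Without that oocyte the Hspb1 ratio of gonad-derived to in vivo GROs moved from -1.40 to -0.64 and its ratio of growth in vivo from -1.21 to -0.45, so that neither was 2-fold. In iPSC-derived oocytes its ratio of growth was 1.11, higher in FGOs, though just under 2-fold without iPSC-derived FGO 3, and in gonad-derived oocytes 0.49. Hspb11 and Hspb6, the other genes of Hspb name above 1 CPM, stayed within 2-fold in all 8 comparisons, and Hspb8 reached at most 0.389 pooled CPM. Hspb11 encodes a protein of intraflagellar transport and is a small heat shock gene by name alone. Exons of Hspb6 overlap Lin37 and Proser3 on the opposite strand. Lin37, at 86.6 to 167 pooled CPM, had growth ratios of 0.57, 0.39 and 0.70 in vivo, in gonad-derived and in iPSC-derived oocytes. The part of its reads in the Hspb6 level was not tested. Hspe1, the mitochondrial Hsp10, ran from 72.5 to 97.4 pooled CPM over the 7 groups and was among the steadiest members, though processed copies and its overlap with Hspd1 on the other strand make its level uncertain.

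A heat shock element of 3 units, GAANNTTCNNGAA or TTCNNGAANNTTC on either strand, was found in the promoter windows of 3 of the 58 members with a window, Dnajb6, Hspe1 and Hsph1, and of 0.662% of all genes with one. In Hsph1 it lay after the start. The shorter GAANNTTC, which each longer match contains, was in 14 of the 58, Hspa1a, Hspa1b and Hspb1 among them, and in 9.04% of all genes. The stretches of Hspe1 (chr1:55088034-55088101, plus strand) and Dnajb6 (chr5:29735827-29735889, plus strand) are shown, with the units in capitals, as the members in which the longer match lies before the start.
Hspe1: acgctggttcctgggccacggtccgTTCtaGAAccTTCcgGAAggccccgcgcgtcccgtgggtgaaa
Dnajb6: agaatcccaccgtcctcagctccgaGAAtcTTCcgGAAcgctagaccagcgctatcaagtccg
Dnajb6, a J-domain protein that keeps polyglutamine proteins soluble, ran from 60.4 to 83.5 pooled CPM over the groups, and growth ratios of Hspe1 were -0.26, -0.37 and -0.11 in vivo, in gonad-derived and in iPSC-derived oocytes, the last 0.06 with TMM scaling. The 15 members without a window, Hsp90aa1 and Hsp90ab1 among them, were not searched.

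The subunits of CCT came apart in FGOs. The complex holds 1 copy of each subunit per ring, and 6 subunit genes were measured above the floor. Cct5 was not analysed, and Tcp1, for the alpha subunit, fell outside the name rule, so the values below cover only part of the ring. Cct6a, for the zeta subunit, ran 80.0, 124 and 176 CPM in in vivo GROs, 59.4, 103 and 141 CPM in gonad-derived and 98.0, 139.6 and 196 CPM in iPSC-derived GROs. In FGOs it ran 3.71, 27.3 and 126 CPM in vivo, 4.66, 8.96 and 33.6 CPM in the 6 dpp group, 1.77, 5.47 and 29.9 CPM in gonad-derived and 1.30, 3.49 and 22.4 CPM in iPSC-derived oocytes. All gonad-derived and iPSC-derived FGOs were below all GROs of their source, and 18 of 20 in vivo FGOs were below all in vivo GROs. The ratio of growth was -1.83 in vivo, -3.30 in gonad-derived and -4.58 in iPSC-derived oocytes, the largest drop of any member in each. Pooled levels in FGOs were 36.1 CPM in vivo (95% Poisson interval 35.2 to 37.1), 10.4 in 6 dpp, 9.91 in gonad-derived and 5.34 CPM in iPSC-derived oocytes, and the ratio of the 6 dpp to the in vivo group was -1.75. That ratio was -1.10 without in vivo FGOs 5, 7, 19 and 22, but these were chosen after seeing the data and have the 4 highest Cct6a levels of their group, so leaving them out had to bring it nearer to 0. Exons of Cct6a overlap Psph on the opposite strand, and Psph was not analysed here. Smart-seq2 libraries keep no record of strand, so reads in the shared exons cannot be assigned to either gene.

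Cct4, for the delta subunit, was also lowest in cultured FGOs, on a smaller scale. It ran 79.1, 134 and 165 CPM in in vivo GROs and 29.5, 74.7 and 165 CPM in in vivo FGOs, against 29.8, 46.3 and 65.4 CPM in 6 dpp and 13.0, 24.5 and 67.2 CPM in gonad-derived FGOs. Its ratio of growth was -0.65 in vivo, -2.05 in gonad-derived and -2.01 in iPSC-derived oocytes, and in the latter 2 the stages did not overlap. Stages also did not overlap for Cct2 in both kinds of cultured oocyte and for Cct7 in gonad-derived oocytes, lower in FGOs each time. Of the other subunit genes, Cct7 had ratios of -0.69, -0.66 and -1.04 (the last -0.87 with TMM scaling, under 2-fold), Cct2 of -0.40, -0.71 and -0.71, Cct8 of -0.20, -0.26 and -0.38 and Cct3 of 0.23, -0.10 and -0.11, the last turning to 0.06 with TMM scaling and 0.04 with DESeq2 size factors. Per length, the highest subunit gene was 4.01-fold above the lowest in in vivo GROs, 39.7-fold in 6 dpp FGOs, 41.6-fold in gonad-derived FGOs and 76.3-fold in iPSC-derived FGOs. In in vivo FGOs Cct8 was at 169 and Cct6a at 13.4 CPM per kilobase, and Cct6a was the lowest of the 6 in all 7 groups. Cct7 and Cct8 overlap Pradc1 and Usp16 on the opposite strand, whose growth ratios in vivo were 0.08 and -0.41.

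**Figure D3:**
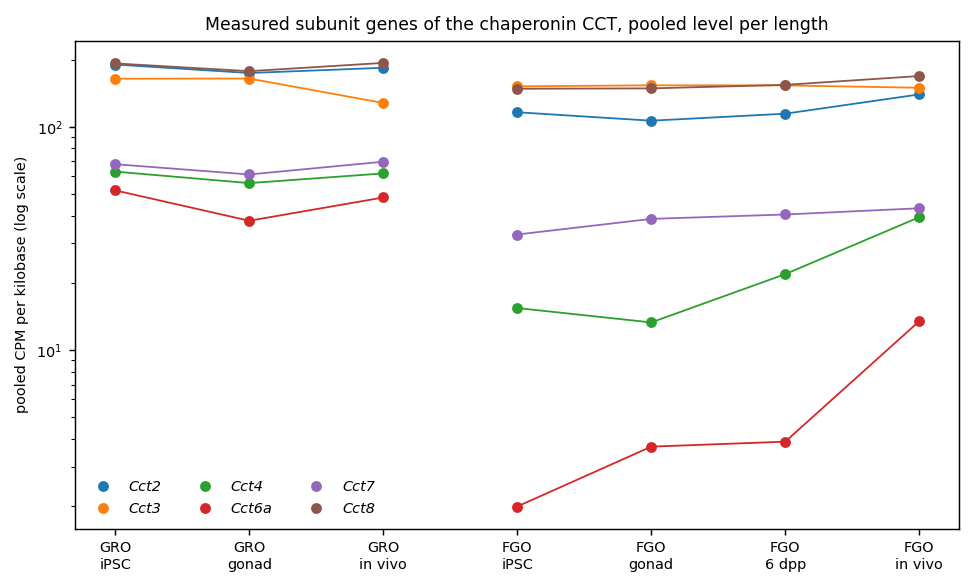
Pooled CPM per kilobase on a log scale of 6 CCT subunit genes in the 7 groups, with lines joining groups of 1 stage as a guide. In GROs the 6 genes lie between 37.9 and 193 CPM per kilobase, and in FGOs Cct6a lies at 13.4 in vivo and 1.99 in iPSC-derived oocytes while Cct3 and Cct8 lie at 148 to 169 in the 4 FGO groups.

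Among J-domain genes, Dnajb4 was far higher in FGOs than in GROs. Dnajb4, a cytosolic partner of Hsp70 close to Dnajb1, ran 67.0, 156 and 274 CPM in in vivo GROs and 257, 812 and 1093 CPM in in vivo FGOs, where 19 of 20 FGOs were above all GROs. In gonad-derived oocytes it ran 125, 209.6 and 393 CPM in GROs and 574, 774 and 1048 CPM in FGOs, and in iPSC-derived oocytes 79.2, 136 and 308 and 510.2, 783 and 1167 CPM, without overlap in either. Its ratio of growth was 2.26 in vivo, 1.82 in gonad-derived and 2.38 in iPSC-derived oocytes. Per length it was below Dnajb1 in all GRO groups (58.0 against 280 CPM per kilobase in vivo) and above it in all FGO groups (278 against 213 in vivo). Dnajb1, the main heat-inducible Hsp40, had ratios of -0.39, -0.04 and -0.12, the latter 2 turning positive (at most 0.05) with either scaling. Dnajc5b, a relative of cysteine string protein, had the highest ratio in vivo at a low level: in vivo GROs ran 0 to 3.71 CPM and in vivo FGOs 2.64 to 18.3 CPM, with ratios of 3.14, 1.93 and 1.56 in vivo, in gonad-derived and in iPSC-derived oocytes. Exons of Dnajc5b overlap 1700064H15Rik on the opposite strand, which was not analysed here. The testis relative of Dnajc5b, Dnajc5g, had medians of 3.76 and 12.9 CPM in in vivo GROs and FGOs, a ratio of 1.61, but ratios of 0.41 and 0.38 in cultured oocytes.

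Most abundant J-domain genes stayed within 2-fold. Dnajc11, of the mitochondrial inner membrane organising system, was the first of the Dnajc genes per length in all 7 groups, with 170 to 281 CPM per kilobase, and its ratios of growth were -0.10, 0.47 and 0.72 in vivo, in gonad-derived and in iPSC-derived oocytes. Dnaja2, first of the Dnaja genes in every group, had ratios of -0.16, 0.16 and 0.37, and Dnajc9, a histone chaperone, of 0.86, 0.44 and 0.90. Dnajc21, which works in ribosome assembly, was under 2-fold higher in iPSC-derived FGOs (0.67), but its FGOs, from 20.0 CPM, did not overlap GROs, which reached 19.6 CPM. Of low genes, Dnajc12, Dnajc24 and Dnajc27 were 2-fold lower in 1 or both kinds of cultured oocyte (Dnajc27 not without any 1 of 8 oocytes), and Dnajb3 was lower in vivo (-1.70), from 2.48 to 0.421 pooled CPM. With a pseudocount of 2 CPM none of these low genes was 2-fold lower, Dnajc24 being at -0.93 in gonad-derived oocytes. Over the Dnajc genes that entered, 26 in vivo and 27 in each kind of cultured oocyte, the median ratio of growth was -0.08 in vivo, 0.06 in gonad-derived and 0.09 in iPSC-derived oocytes.

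Culture steps were read from 5 comparisons, which share groups with each other and with those of growth. The step from stem cell to germ cell (IVP, in vitro PGC differentiation) was read by iPSC-derived against gonad-derived oocytes. In GROs, 1 of 64 members was at least 2-fold higher and 0 lower (all genes, 1.98% and 1.75%), and in FGOs 0 and 0 (2.19% and 3.74%). The 1 was Dnajc22, a low gene of 2.06 and 0.770 pooled CPM, which was under 2-fold without any 1 of 23 oocytes. Differentiation of germ cells into oocytes in reconstituted ovaries (IVD) was read by gonad-derived against in vivo GROs, with 1 of 64 higher and 6 lower (4.18% and 2.7%), and by gonad-derived against 6 dpp FGOs, with 0 and 0 (1.58% and 0.95%). The 6 lower were Hsp90ab1, Hspa2, Hspb1, Hspa1a, Hspa1b and Dnajc28, and the 1 higher was Dnajc5b at 1.24. As Hspa1a and Hspa1b passed the filter only where they were high, nothing is read from this count about the members, and only 2 of the 7 called in either direction were called with a pseudocount of 2 CPM and 1 with medians over oocytes. Hsp90aa1 and Hspa8 were lower by -0.72 and -0.62, and Dnajc28, of 2.66 pooled CPM in gonad-derived and 5.83 in in vivo GROs, lay at the threshold and was under 2-fold without any 1 of 19 oocytes (-0.91 without in vivo GRO 24). Without in vivo GRO 3 the count of 7 became 5, since Hspb1 and Dnajc28 were then under 2-fold. The study reports that both kinds of cultured GRO were larger than in vivo GROs. The part of oocyte size in ratios between these groups was not tested. Growth in culture (IVG) was read by 6 dpp against in vivo FGOs, with 0 of 64 higher and 2 lower, Cct6a and Hspa5 (1.22% and 2.97%). No member's oocytes were without overlap in any of the 5, against 0.365%, 0.127%, 0.464%, 0.00736% and 0.302% of all genes in the order IVP in GROs, IVD in GROs, IVP in FGOs, IVD in FGOs and IVG.

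**Figure D4:**
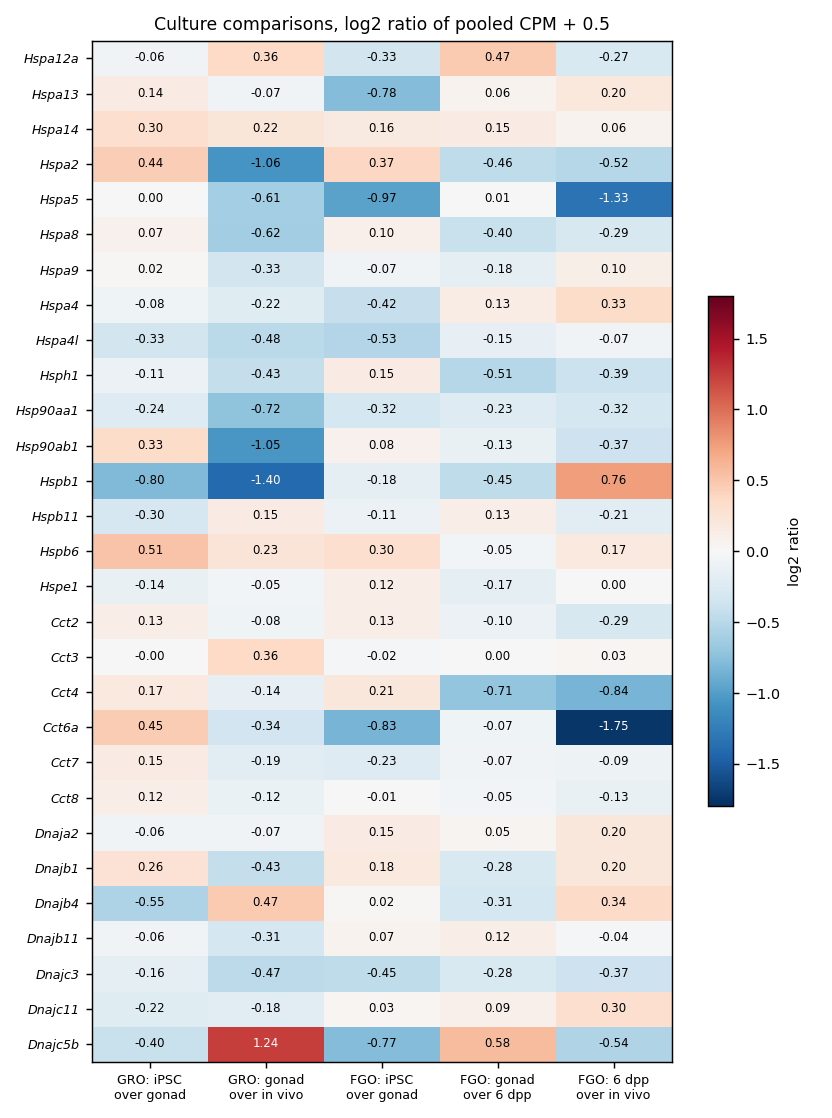
Log2 ratios of pooled CPM + 0.5 for members of the Hsp70, Hsp110, Hsp90, small heat shock, Hsp10 and CCT families with at least 5 pooled CPM in a group, and for 7 J-domain genes, in the 5 culture comparisons. The lowest cell is Cct6a in 6 dpp over in vivo FGOs at -1.75, Hspa5 is at -1.33 there, and the column of gonad-derived over in vivo GROs has Hspb1 at -1.40, Hspa2 at -1.06 and Hsp90ab1 at -1.05.

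Partners of the chaperones outside the name rule were read from fixed lists. Of 11 Hsp90 co-chaperones measured (14 listed), the immunophilin Fkbp4 was lower in FGOs of all 3 sources (-1.50, -1.77 and -1.46) and its relative Fkbp5 higher (1.12, 1.34 and 1.89). Fkbp5 medians were 77.1 CPM in in vivo GROs and 195, 266, 304 and 416 CPM in in vivo, 6 dpp, gonad-derived and iPSC-derived FGOs. Ppid was higher in vivo alone at 2-fold (1.17), and the other 8 stayed within 2-fold in growth. Of 8 Hsp70 exchange factors and partners measured (12 listed), Hspbp1 was lower in FGOs of each source (-2.11, -1.77 and -2.72), and Sil1, an exchange factor of BiP as Hyou1 is, also in iPSC-derived oocytes (-1.70). Of 9 prefoldin and chaperonin partners measured (14 listed, with the CCT subunit gene Tcp1 among those listed), Pdcl was lower in gonad-derived and iPSC-derived oocytes (-1.22 and -1.05) and Bbs10 higher in vivo (1.43). Of 8 mitochondrial chaperones and proteases measured (10 listed), Spg7 was lower in each source (-1.44, -1.04 and -1.51). Of 6 genes measured from a list of heat shock factors and proteins named for binding them (7 listed), Hsf1 stayed within 2-fold (0.51, 0.40 and 0.31). Hsf5 was higher in vivo and in iPSC-derived oocytes (1.66 and 1.20). These counts are read beside the shares of all genes past 2-fold in growth given above. In the 5 culture comparisons no gene of these 5 lists was 2-fold apart, where 0.95% to 4.18% of all genes were so in a direction, so that a count of 0 among so few genes says nothing particular about the lists.

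Spread between oocytes was wide for Cct6a in all 4 FGO groups. Among the 39 members of at least 20 pooled CPM in in vivo FGOs, the coefficient of variation was 93.2% for Cct6a, 75.7% for Hsph1 and 55.3% for Cct4, against a median of 16.4% and 5.17% for Dnajb6. In cultured FGOs Cct6a lay under 20 pooled CPM, and its coefficient of variation was 59.7% in 6 dpp, 90.8% in gonad-derived and 85.9% in iPSC-derived FGOs, against 15.2% to 19.2% in GROs. Of the members above 20 pooled CPM there, Hspa5 was the widest in iPSC-derived (54.3%) and 6 dpp FGOs (38.3%) and Dnajb9 in gonad-derived FGOs (58.9%). By the same limit Cct2 was the steadiest member in all 3 GRO groups, at 6.73% to 8.23%. In vivo FGO 7 had 126 CPM of Cct6a, 257 CPM of Dnajb4 and 2.64 CPM of Dnajc5b, values inside the ranges of in vivo GROs. In vivo FGOs 22, 5 and 19, with the next highest Cct6a levels (84.0, 73.4 and 61.9 CPM), also had the next lowest Dnajb4 levels (464, 491 and 484 CPM), and these 4 had the highest Hsph1 levels of their group. Across the 20 in vivo FGOs, log2 levels of Cct4 and Cct6a had a Pearson r of 0.96 (rho 0.95, and 0.96 without the 2 farthest), and those of Dnajb4 and Cct6a of -0.80 (rho -0.87). In 6 dpp FGOs the same values were 0.49 (rho 0.37) and -0.08 (rho -0.05). For Cct4 and Cct6a r was 0.78 in gonad-derived FGOs (rho 0.75) and 0.13 to 0.38 in the other 4 groups. Leaving out the 2 farthest raised r to 0.59 for in vivo GROs and to 0.52 for gonad-derived GROs. The 6 dpp and gonad-derived FGOs then had 0.45 and 0.72. Oocytes of the iPSC source had 0.02 at the growing and 0.30 at the fully grown stage. For Dnajb4 and Cct6a r was -0.79 in gonad-derived GROs (rho -0.74), -0.70 in iPSC-derived GROs (rho -0.67), -0.57 and -0.41 in iPSC-derived and gonad-derived FGOs and -0.26 in in vivo GROs. Without the 2 farthest it was -0.30 in iPSC-derived FGOs, -0.36 in gonad-derived FGOs and -0.02 in in vivo GROs. In gonad-derived and iPSC-derived GROs it was then -0.67 and -0.66.

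**Figure D5:**
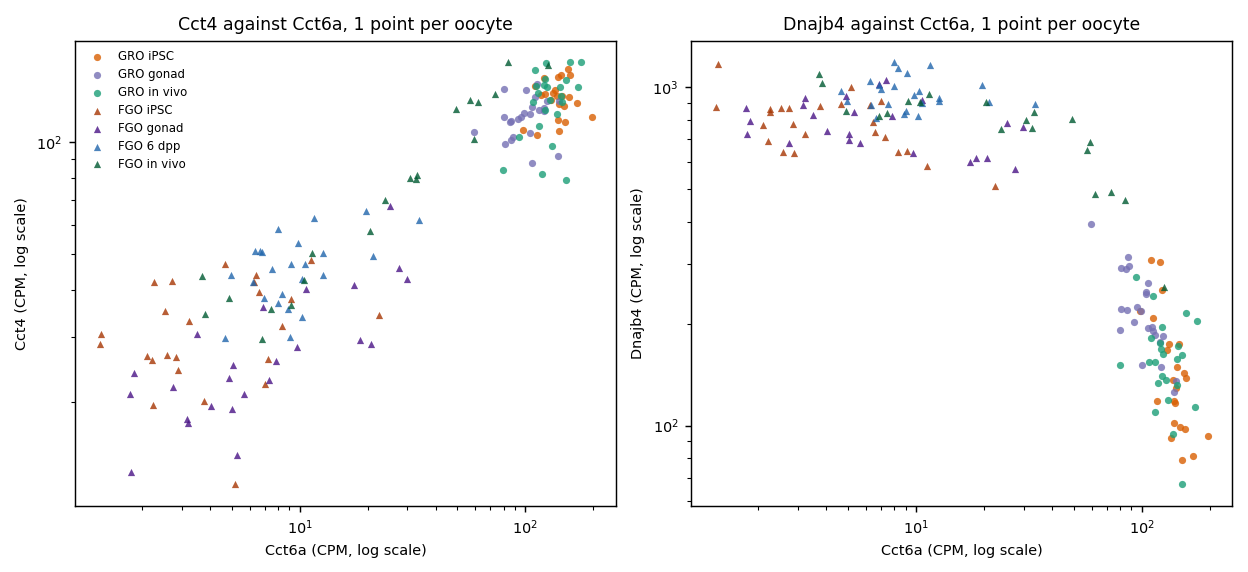
CPM of Cct4 (left) and Dnajb4 (right) against Cct6a on log scales, 1 point per oocyte, with circles for GROs and triangles for FGOs of the 7 groups. GROs lie at Cct6a levels of 59.4 to 196 CPM and cultured FGOs at 33.6 CPM or less, and in vivo FGOs run from 3.71 to 126 CPM.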

How the data were processed

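RNA of single oocytes was read as Smart-seq2 libraries. The authors aligned single-end reads with STAR to GRCm38 (mm10; names per the submitters' processing notes) with spike-in sequences, and counted uniquely mapped exonic reads of 1 randomly chosen transcript per gene with QuasR. They deposited raw counts and an exonic length per gene. Smart-seq2 libraries keep no record of strand, and 24 members have exons that overlap a gene on the opposite strand in GENCODE vM21. Genes with near-identical copies are undercounted.

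Of 21950 genes, 21907 matched RefSeq symbols (GRCm38.p6), and 43 had no symbol. The members and lists were chosen with earlier results of these data known. The study's choice of oocytes by size was not applied. Counts were pooled by group (Python 3.11.15, pandas 2.3.3), with exact Poisson 95% intervals from scipy 1.17.1 that cover counting error only, a pseudocount of 0.5 CPM, a filter of 1 CPM in 3 oocytes and a 2-fold rule. The calculation of ratios was also run on simulated data, which is no test of the comparisons. Levels per length used the deposited length. All members outside the Dnaj families could be named, along with the 5 highest Dnaja, Dnajb and Dnajc genes per length, up to 10 members per comparison and direction with 5 pooled CPM and 2-fold, and list genes past 2-fold. Dnajb3, Dnajb7, Dnajb8, Dnajb9, Dnajb13, Dnajc12, Dnajc21, Dnajc22 and Dnajc27 fall outside that rule and were named after their values were seen, as were list genes given for comparison. Alternatives were edgeR 4.0.16 TMM and DESeq2 1.42.0 size factors, pseudocounts of 0.1 and 2 CPM, medians and means over oocytes, no filter, and oocytes left out. Log2 levels within groups were correlated for 8 gene pairs in 7 groups. Pairs not given above were Hspa2 with Hsp90ab1, and Hspa5 with Cct6a, Pdia6 and Hsp90aa1. Over the 7 groups their Pearson r ran, in that order, from 0.10 to 0.81, 0.09 to 0.77, -0.06 to 0.69 and -0.11 to 0.81.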

Additional observations from a re-analysis of the deposited data

How the results depend on the processing

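Some counts of members at least 2-fold apart moved with the setting. For iPSC-derived against gonad-derived GROs the count of 1 became 0 with TMM scaling, with DESeq2 size factors and with a pseudocount of 2 CPM, and 2 with a pseudocount of 0.1 CPM or with medians over oocytes. With 1 oocyte left out it ran from 0 to 1. For gonad-derived against in vivo GROs the count of 7 became 2 with a pseudocount of 2 CPM (Hsp90ab1 and Hspb1) and 1 with medians over oocytes (Hspa2). By medians the abundant gene Hsp90ab1 was just under 2-fold, at -0.95. For iPSC-derived against gonad-derived FGOs the count of 0 became 1 with either scaling and with a pseudocount of 0.1 CPM, each time Dnajc22, and 1 with medians over oocytes, Hspa5. With 1 oocyte left out it ran from 0 to 3, the latter without iPSC-derived FGO 13. For gonad-derived against 6 dpp FGOs the count of 0 became 2 with a pseudocount of 0.1 CPM, the low genes Dnajb13 and Hspb8. The cause was not tested beyond these names. Growth and 6 dpp against in vivo FGOs kept their counts within 1.5 times under every alternative run. TMM scaling moved the median of all genes by 0.15 in growth of iPSC-derived oocytes, and the median member ratio there ran from -0.20 to 0.01 over the alternatives. With TMM scaling 6 members changed sign there, none of them over 0.16 in size before, and in the other comparisons 2 to 6 members of at most 0.073 in size did so with TMM scaling or DESeq2 size factors (none with the latter in iPSC-derived against gonad-derived GROs). No paired analysis was possible because each group counts as 1 sample and oocyte numbers do not pair groups.

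All values come from 1 count table of cells without named animals or cultures, so source, culture batch and group cannot be told apart. Relative levels also cannot show whether an oocyte held more or less RNA in all.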
